A study of Mus musculus with 8 samples.

Results

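Genes that drive cells into and out of mitosis were measured on 8 two-colour cDNA arrays, each of which set HM-1 cells against R1 cells, both established lines of mouse embryonic stem cells. The set held 56 genes chosen by name: cyclins and their kinase, mitotic kinases, the spindle checkpoint, kinetochore proteins, the anaphase promoting complex, cohesin and condensin, and cytokinesis factors. A probe annotated with a member's symbol was present for 45 of the 56, and 41 were tested because at least 3 arrays of each condition held a value, among 14015 features tested and 16255 in all. On 4 arrays both lines were untreated, and on 4 arrays both lines had been given nocodazole, a drug that takes microtubules apart and arrests dividing cells in mitosis. Its dose and time are not stated in the labels, and the arrest itself was not measured, because treated HM-1 cells were always compared with treated R1 cells. The label of HM-1 was Cy3 on untreated replicates 3 and 4 and nocodazole replicate 4, and Cy5 on the other five arrays. That is 37.5% of the arrays, whereas the design text speaks of a swap on 50%. With the dyes of nocodazole replicate 3 exchanged, the median dye term over members was 0.10 in place of 0.0004. The protocols also speak of organs and of a reference pool from animals, which the channel labels of these arrays do not show. Separate cultures are not named for the replicates in the labels, and p-values reflect the spread of these arrays alone, and that spread may be technical.

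Values are log2 ratios between the lines, centred on the median of each array, with the sign of the deposited table. The sources used here do not settle which line is the numerator, so no line is called higher. Nor do they settle whether the arrays with HM-1 in Cy3 were already turned. If they were not, the dye term below carries the difference between the lines, and the line ratios carry the dye. For each line comparison the count of members at an unadjusted p under 0.05 is also given with the sign of the 3 arrays with HM-1 in Cy3 turned. The intervals, the promoter groups and the other gene lists are given with the deposited signs only. Arrays held 17928 to 19445 values of 20355 probes, and no spot brightness was at hand, so the presence of stem cell markers or of any member could not be read as a level. A ratio in bulk RNA cannot tell a different share of dividing cells from a different amount of RNA per cell.

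Cells enter mitosis when cyclin B and cyclin A activate the kinase CDK1, after CDC25 phosphatases remove the inhibitory phosphate that WEE1 placed on it. Unattached kinetochores then hold the spindle checkpoint on. MAD2 and BUBR1 capture CDC20, and the anaphase promoting complex, a ubiquitin ligase, stays inactive until every chromosome is attached. Nocodazole keeps this checkpoint engaged. Embryonic stem cells divide rapidly with short gap phases, so that these genes are active in a large part of a culture. Many genes of late cell cycle share promoter elements, the CHR (cell cycle genes homology region), bound by the DREAM and MuvB complexes, and the CCAAT box bound by NF-Y.

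Promoter windows from RefSeq (GRCm38.p6), 250 bases before to 50 bases after the annotated start, were matched for 47 of the 56 members. The CHR core TTTGAA stood on either strand in 25 of the 47 (53.2%) and in 20.2% of 27025 genes with such a window. CCAAT stood on either strand in 34 of the 47 (72.3%) and in 41.1% of all genes. Both were present in 23 members (48.9%) and in 7.97% of all genes. In the spindle midzone and cytokinesis group, which also holds Mki67 and Hmmr, all 6 genes held the CHR core. Only 4 of 12 genes of the anaphase promoting complex and separase group did. In the 44 members with a single window the median position of 29 CHR matches was 2 bases after the start, and that of 72 CCAAT matches was -67.5 bases, upstream of it. A match is a run of letters and not a shown binding site, and the motifs do not overlap each other in the sequences printed here. 5 promoters are shown, of 3 members with untreated ratios below 0 (Cdk1, Cdc20, Cenpe), of cyclin B2, and of Anapc5, the member with the largest nocodazole ratio relative to its error. Capitals mark TTTGAA, its reverse complement, CCAAT and its reverse complement.
Cdk1, chr10:69352863-69353162, - strand: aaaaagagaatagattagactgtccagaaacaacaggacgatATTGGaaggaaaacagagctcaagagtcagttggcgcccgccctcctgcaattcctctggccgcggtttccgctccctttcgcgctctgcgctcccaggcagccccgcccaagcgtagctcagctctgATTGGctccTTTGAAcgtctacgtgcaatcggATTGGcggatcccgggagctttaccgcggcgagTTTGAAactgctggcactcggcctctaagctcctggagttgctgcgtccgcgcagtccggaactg
Ccnb2, chr9:70421505-70421804, - strand: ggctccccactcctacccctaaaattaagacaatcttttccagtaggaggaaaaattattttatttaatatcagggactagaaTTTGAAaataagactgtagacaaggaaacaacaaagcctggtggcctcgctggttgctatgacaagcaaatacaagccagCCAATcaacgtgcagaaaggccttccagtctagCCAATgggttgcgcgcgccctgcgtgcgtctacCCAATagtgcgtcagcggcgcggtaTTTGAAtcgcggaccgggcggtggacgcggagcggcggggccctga
Cdc20, chr4:118437294-118437593, - strand: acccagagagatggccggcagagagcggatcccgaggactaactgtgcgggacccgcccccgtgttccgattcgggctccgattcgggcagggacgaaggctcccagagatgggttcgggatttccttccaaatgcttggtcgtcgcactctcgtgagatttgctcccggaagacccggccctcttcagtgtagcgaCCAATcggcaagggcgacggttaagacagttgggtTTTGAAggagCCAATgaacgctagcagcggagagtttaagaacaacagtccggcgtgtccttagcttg
Cenpe, chr3:135212313-135212612, + strand: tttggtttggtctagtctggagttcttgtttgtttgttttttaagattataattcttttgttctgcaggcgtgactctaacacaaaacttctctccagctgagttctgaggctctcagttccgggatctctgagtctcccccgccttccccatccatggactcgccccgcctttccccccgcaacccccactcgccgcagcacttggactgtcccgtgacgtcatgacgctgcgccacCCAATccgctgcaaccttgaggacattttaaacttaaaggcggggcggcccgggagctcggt
Anapc5, chr5:122821293-122821592, - strand: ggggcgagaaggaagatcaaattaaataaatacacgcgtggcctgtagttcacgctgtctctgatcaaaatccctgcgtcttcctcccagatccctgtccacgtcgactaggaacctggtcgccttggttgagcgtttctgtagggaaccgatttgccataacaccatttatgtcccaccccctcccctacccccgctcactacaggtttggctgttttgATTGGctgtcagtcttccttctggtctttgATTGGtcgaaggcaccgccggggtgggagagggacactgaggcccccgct
The Cdk1 and Ccnb2 windows each held 2 CHR cores and 3 CCAAT boxes, and the Cdc20 window held 1 CHR core and 2 CCAAT boxes. The Cenpe and Anapc5 windows held no CHR core, with 1 and 2 CCAAT boxes. Among tested members with a window, the untreated ratios had a median of -0.16 in the 19 with a CHR core, 14 of them negative, and of -0.03 in the 14 without one, 8 of them negative. With nocodazole the medians were -0.09 with a CHR core (15 negative) and -0.04 without one (9 negative). For the change between conditions they were 0.08 (7 negative) and -0.07 (9 negative). These values describe the members with the deposited signs and were not tested.

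**Figure D1:**
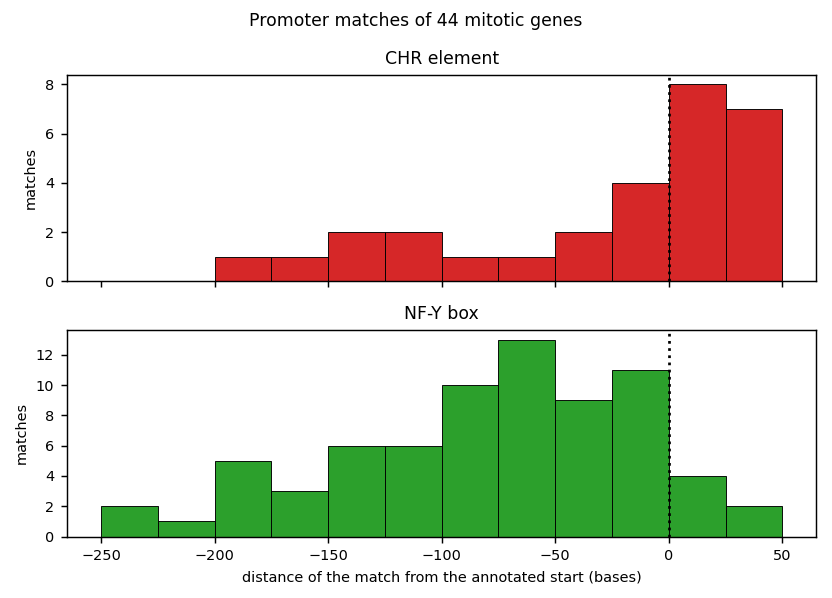
Histograms of the distance in bases between each match and the annotated transcription start, for the 44 members with a single promoter window; bars count matches in 25-base bins on both strands. Of 29 CHR matches 23 began within 100 bases before the start or after it, and of 72 NF-Y box matches 49 did.

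In untreated cells the fitted ratio of 35 of the 41 tested members lay within -0.5 to 0.5, and 6 lay beyond (14.6%, against 12.9% of all features). Of the members 27 were negative and 14 positive, with a median of -0.09, while 7022 of all 14015 features were negative with a median of -0.0005. No member passed an adjusted p of 0.05 in limma (smallest 0.755), and 0% of all features did. At an unadjusted p under 0.05 there were 5 members (12.2%), against 6.33% of all features. They were Cdk1, the kinase of mitotic entry, Cenpe, a kinetochore motor protein, Cdc20, the checkpoint's target and activator of the anaphase promoting complex, Tpx2, a spindle assembly factor that activates Aurora A, and Cdc16, a core subunit of the anaphase promoting complex. All 5 were negative with the deposited signs, and 2.98% of all features were negative at that threshold. The count was 2 without untreated replicate 2 and 1 without untreated replicate 4. With the Cy3 arrays turned it was 4 members, against 10.5% of features, and none of these 5 was among them. The 3 that were then negative were Cenph, Mad2l1 and Pttg1 (7.32%, against 7.36% of features), and the median over members became 0.04.

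**Figure D2:**
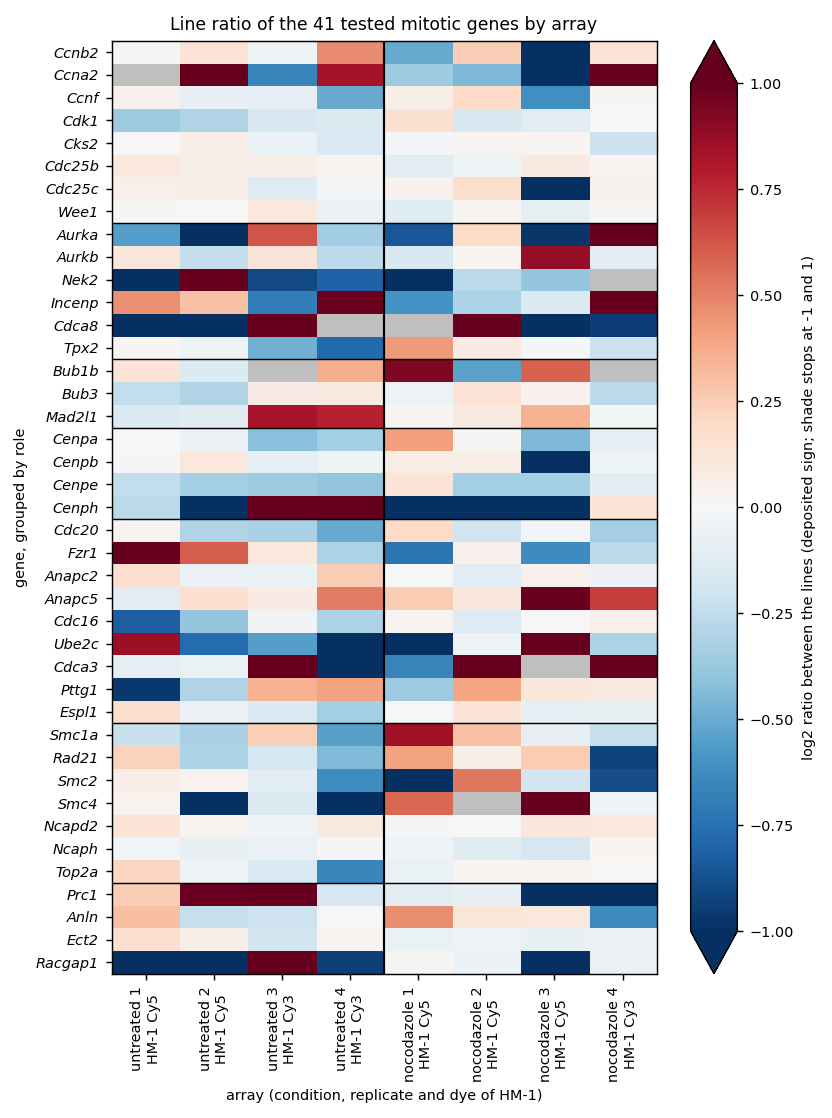
Heat map of the log2 line ratio of the 41 tested members (rows, grouped by role and separated by lines) on the 8 arrays (columns, with the dye of HM-1); red is above 0, blue below, grey missing, and the shade stops at -1 and 1. In 17 of the 41 rows a value passes -1 or 1 on at least 1 array, in 12 rows no value passes -0.5 or 0.5, and Ccna2, Cdca8, Cenph, Ube2c and Racgap1 change sign between arrays in strong shades.

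With nocodazole the fitted ratio of 11 of the 41 members lay beyond -0.5 or 0.5 (26.8%, against 14.4% of all features), among them Cdca8 (-1.90), Prc1 (-1.32), Nek2 (-1.28), Cdca3 (0.74) and Smc2 (-0.72), whose intervals all included 0. Of the members 29 were negative, with a median of -0.07, beside 7160 of 14015 features negative and a median of -0.0045. The smallest adjusted p in limma was 0.999, and 0% of features passed. Only Anapc5, a subunit of the anaphase promoting complex, had an unadjusted p under 0.05 (2.44% of members, against 2.91% of all features). The count was 2 without untreated replicate 1 or without nocodazole replicate 2, and 3 without nocodazole replicate 4. With the Cy3 arrays turned it was 5, against 5.13% of features, and the median was 0.01.

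Over both conditions 3 members had an unadjusted p under 0.05 (7.32%, against 5.59% of all features): Cenpe and Cdc20 below 0 and Anapc5 above it. None passed after adjustment (smallest adjusted p 0.894), and again 0% of features did. The count was 5 without untreated replicate 1 and without nocodazole replicate 1, and 1 without untreated replicate 4. With the Cy3 arrays turned it was 6, against 10.5% of features, and Cenpe, Cdc20 and Anapc5 all changed sign.

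If the deposited signs hold, the intervals of the fit bound the mean ratio of these genes on these arrays. They rest on the spread of the arrays, which may be technical, so they do not cover a spread between separate cultures of the lines. Intervals with the Cy3 arrays turned are not given, and the fitted ratios differ there, so the bounds below do not cover that reading. For the untreated ratio the 95% interval reached a median of 0.46 to either side of the estimate over members and 0.47 over all features. The interval lay wholly within -0.5 to 0.5 for 12 of the 41 members untreated (29.3%, against 37.3% of all features) and for 17 with nocodazole (41.5%, against 36.8%). For the mean over both conditions it did so for 23 members (56.1%, against 51.6%), among them Cdk1, Cdc20, Cdc25b, Wee1, Aurkb, Bub3, Cenpa, Espl1, Ncapd2, Ncaph, Top2a and Ect2. For 32 members (78%, against 79.5% of all features) it lay within -1 to 1, that is, within a 2-fold ratio either way. For the other 9 these arrays leave a larger ratio possible. Among the 32 were Aurka, Ccnb2, Cenph, Fzr1 and Incenp, although the probes of each differed by a median of 1.02 to 1.95 per array.

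**Figure D3:**
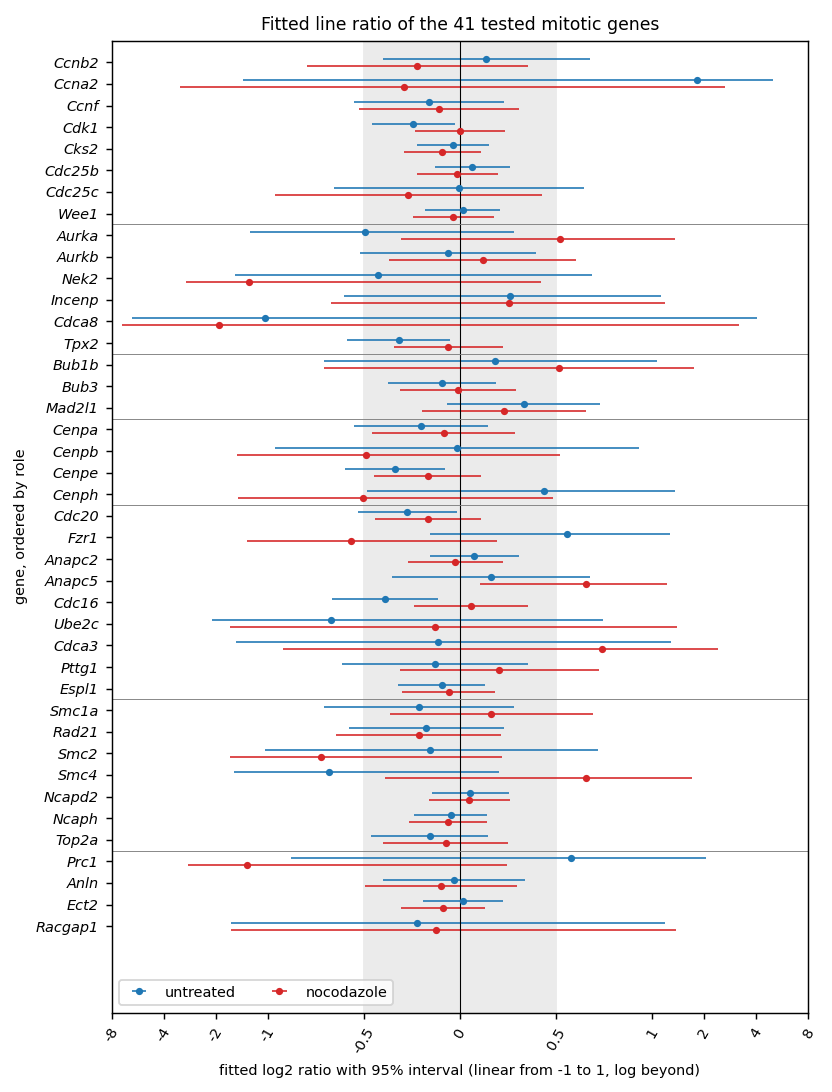
Fitted log2 line ratio of the 41 tested members with its 95% interval from limma, untreated in blue and with nocodazole in red, ordered by role; the axis is linear from -1 to 1 and logarithmic beyond, and the grey band spans -0.5 to 0.5. In untreated cells 12 intervals lie inside the band, and those of Ccna2 and Cdca8 are the widest.

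Among genes of mitotic entry, Cdk1 was at -0.36, -0.30, -0.16 and -0.14 on untreated replicates 1 to 4, a mean of -0.24 ± 0.11 (SD, n = 4). On nocodazole replicates 1 to 4 it was at 0.15, -0.16, -0.11 and -0.004. All untreated values were negative and nocodazole replicate 1 was the highest of the 8. The fitted untreated ratio was -0.24 (95% interval -0.46 to -0.02, adjusted p = 0.764), or -0.091 with the Cy3 arrays turned. Cdc25b, a phosphatase that activates CDK1, was the tightest member of this group, at 0.06 ± 0.03 untreated and -0.01 ± 0.09 with nocodazole (SD, n = 4 each). Wee1, the kinase that opposes it, was at 0.01 ± 0.07 and -0.05 ± 0.08, and the CDK-binding subunit Cks2 at -0.04 ± 0.09 and -0.05 ± 0.12 (SD, n = 4 each). Cyclin F, Ccnf, was at -0.16 ± 0.24 and -0.08 ± 0.36 (SD, n = 4 each). Cdc25c was at -0.006 ± 0.09 untreated and -0.30 ± 0.77 with nocodazole (SD, n = 4 each), where replicate 3 alone was far from 0.

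The A and B cyclins were less well measured. Cyclin B2, Ccnb2, had a pair of probes. On one, with a value on every array, it lay between -0.23 and 0.37, while the other had 5 values between -2.60 and 1.17. Cyclin A2, Ccna2, lay between -0.66 and 4.95 untreated (n = 3) and between -2.002 and 2.24 with nocodazole (n = 4), and its 2 probes differed by a median of 1.30 on the 6 arrays where both gave a value. Its fitted intervals were wider than -1 to 1 in both conditions, so no 2-fold ratio could be detected or bounded. The B-type cyclin Ccnb1 had no annotated probe among those used here.

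Of the mitotic kinases, Aurkb, the kinase of the chromosomal passenger complex, was at 0.12, -0.24, 0.13 and -0.26 on untreated replicates 1 to 4 and at -0.16, 0.03, 0.88 and -0.12 with nocodazole. Both conditions spread over 0 and they overlapped. Aurka, the centrosomal Aurora kinase, had untreated values of -0.55, -1.70, 0.63 and -0.35 and nocodazole values of -0.85, 0.19, -0.97 and 1.93. Its highest values in each condition were on arrays with HM-1 in Cy3, and its dye term was -1.78 (95% interval -2.95 to -0.61, adjusted p = 0.446). With the Cy3 arrays turned the mean of Aurka was -0.63 ± 0.84 untreated and -0.89 ± 0.87 with nocodazole (SD, n = 4 each). The 2 probes of Aurka differed by a median of 1.95 on the 3 arrays where both gave a value, with opposite signs on untreated replicates 3 and 4. On the probe with 7 values, untreated replicate 4 was at -1.32, below untreated replicate 1 at -0.55. Which probe gave a value differed between arrays, and its part in the dye term was not tested. Plk1, polo-like kinase, gave 3 values, 2.15 on untreated replicate 1, -3.24 on nocodazole replicate 1 and 2.54 on nocodazole replicate 4, and was not tested.

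Tpx2 was at 0.02, -0.04, -0.48 and -0.78 on untreated replicates 1 to 4 and at 0.42, 0.08, -0.01 and -0.22 with nocodazole. In both conditions the arrays with HM-1 in Cy3 were the lowest. Its untreated ratio was -0.32 (95% interval -0.59 to -0.05, adjusted p = 0.755) and its dye term 0.51 (95% interval 0.11 to 0.92, adjusted p = 0.498), and with the Cy3 arrays turned the untreated ratio was 0.31. The scaffold Incenp had 3 probes, of which one equalled a ratio of small whole numbers on 7 of 8 arrays, and the gene was at 0.26 ± 0.70 untreated and 0.10 ± 0.92 with nocodazole (SD, n = 4 each). Nek2, a centrosome kinase, was at -0.43 ± 1.06 (SD, n = 4) and -0.85 ± 0.91 (SD, n = 3), and Cdca8, the borealin subunit of the passenger complex, ranged from -7.88 to 1.6. Tacc3 had no annotated probe.

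In the spindle checkpoint, 3 of 5 members were tested, and with the deposited signs none had an unadjusted p under 0.05 in a line comparison. Mad2l1, the MAD2 protein that binds CDC20, was at -0.14, -0.12, 0.82 and 0.77 on untreated replicates 1 to 4 and at 0.03, 0.09, 0.35 and -0.01 with nocodazole. The untreated values fell apart by dye: the arrays with HM-1 in Cy5 were just below 0 and those with HM-1 in Cy3 well above it. The untreated ratio was 0.33 (95% interval -0.07 to 0.73, adjusted p = 0.83). With the Cy3 arrays turned the untreated mean of Mad2l1 was -0.46, and its unadjusted p in limma was under 0.05. Bub1b, the BUBR1 kinase, was at 0.13, -0.13 and 0.36 on untreated replicates 1, 2 and 4 and at 0.94, -0.54 and 0.59 on nocodazole replicates 1 to 3. Bub3, a partner of both BUB kinases, was at -0.09 ± 0.21 untreated and -0.03 ± 0.17 with nocodazole (SD, n = 4 each). Its probes differed in sign on 5 of 8 arrays, furthest on untreated replicates 3 and 4, where one was at -0.37 and -0.31 and the other at 0.53 and 0.48. Bub1 and Ttk had no annotated probe.

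At the centromere, Cenpe gave untreated ratios of like size on every array. It was at -0.25, -0.34, -0.36 and -0.39 on untreated replicates 1 to 4, a mean of -0.34 ± 0.06 (SD, n = 4). With nocodazole it was at 0.13, -0.34, -0.34 and -0.11. The value was negative on 7 of 8 arrays, with both dyes, and positive on nocodazole replicate 1. The fitted ratio was -0.34 untreated (95% interval -0.60 to -0.08, adjusted p = 0.755) and -0.25 over both conditions (-0.44 to -0.06, adjusted p = 0.894). Without nocodazole replicate 1 or any other single array the latter stayed between -0.29 and -0.22. With the Cy3 arrays turned the ratio of Cenpe was 0.041 untreated and 0.028 over both conditions.

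Cenpa, the histone H3 variant that marks centromeres, was at -0.002, -0.06, -0.42 and -0.34 on untreated replicates 1 to 4 and at 0.41, 0.02, -0.45 and -0.09 with nocodazole. Cenpb, a protein that binds centromeric repeats, was at -0.02 ± 0.08 untreated (SD, n = 4) and at 0.07, 0.07, -2.27 and -0.04 with nocodazole, where replicate 3 lay apart. Cenph, an inner kinetochore subunit, had the largest of the 4 dye terms with an unadjusted p under 0.05, -2.54 (95% interval -3.94 to -1.15, adjusted p = 0.442). One of its probes equalled a ratio of small whole numbers on 6 of 7 arrays. Nuf2 had 4 values, between -1.05 and 2.63, and was not tested, and Cenpf and Ndc80 had no annotated probe.

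For the anaphase promoting complex, Cdc20 was at 0.03, -0.30, -0.32 and -0.50 on untreated replicates 1 to 4 and at 0.19, -0.20, -0.03 and -0.34 with nocodazole. Replicate 1 was the only positive array in each condition. The untreated ratio was -0.27 (95% interval -0.53 to -0.02, adjusted p = 0.764), and the ratio over both conditions -0.22 (-0.41 to -0.03, adjusted p = 0.894). With the Cy3 arrays turned these ratios were 0.14 and 0.16. Cdc16 was at -0.82, -0.38, -0.04 and -0.32 on untreated replicates 1 to 4 and at 0.02, -0.13, 0.008 and 0.05 with nocodazole. Its untreated values were all negative and its nocodazole values all near 0. One of its probes was at -1.52 on untreated replicate 1, where the other was at -0.12. Fitted alone, these probes gave untreated ratios of -0.59 and -0.19.

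Anapc5 was at -0.11, 0.17, 0.08 and 0.51 on untreated replicates 1 to 4 and at 0.26, 0.12, 1.36 and 0.70 with nocodazole, so the conditions overlapped. Its nocodazole ratio was 0.66 (95% interval 0.11 to 1.21, adjusted p = 0.999), or 0.08 with the Cy3 arrays turned. Anapc2, the cullin subunit, was near 0 in both conditions, at 0.07 ± 0.16 and -0.03 ± 0.07 (SD, n = 4 each). Fzr1, the CDH1 activator that replaces CDC20 late in mitosis, was at 1.83, 0.61, 0.10 and -0.32 on untreated replicates 1 to 4 and at -0.73, 0.04, -0.63 and -0.27 with nocodazole. One of its probes reached 3.86 and equalled a ratio of small whole numbers on 4 of 6 arrays, and the other lay between -0.54 and 0.10.

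Pttg1, the securin that restrains separase, was at -0.97, -0.30, 0.35 and 0.40 on untreated replicates 1 to 4 and at -0.37, 0.39, 0.11 and 0.09 with nocodazole. The untreated values again split by dye label. With the Cy3 arrays turned the untreated mean of Pttg1 was -0.50, and its unadjusted p in limma was under 0.05. Espl1, the separase itself, was at -0.09 ± 0.21 and -0.007 ± 0.10 (SD, n = 4 each). Ube2c, the ubiquitin-conjugating enzyme of the complex, had a far wider spread, -0.67 ± 1.26 and 0.14 ± 1.44 (SD, n = 4 each), and Cdca3 ranged from -1.66 to 1.5. Anapc1 and Anapc4 had values on 2 untreated and 3 nocodazole arrays each and were not tested, and Cdc23 and Cdc27 had no annotated probe.

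Among condensin genes the non-SMC subunits Ncapd2 and Ncaph were tight and the SMC subunits wide. Ncapd2 and Ncaph were at 0.05 ± 0.08 and -0.05 ± 0.03 untreated and at 0.05 ± 0.07 and -0.08 ± 0.08 with nocodazole (SD, n = 4 each). Top2a, which untangles sister chromatids, was at 0.22, -0.03, -0.15 and -0.66 on untreated replicates 1 to 4 and at -0.07, 0.03, 0.03 and 0.001 with nocodazole, so that the nocodazole arrays lay inside the untreated range. Smc2, a condensin ATPase, was at 0.07, 0.03, -0.11 and -0.62 untreated and at -1.95, 0.52, -0.19 and -0.89 with nocodazole. Its outlying values came from a probe that gave 3 values, all below -1, while the other probe lay between -0.19 and 0.52. Smc4, the partner of SMC2, had an untreated mean of -0.68 ± 0.75 (SD, n = 4) and a nocodazole mean of 0.76 ± 0.92 (SD, n = 3), with overlapping values. The cohesin subunits Smc1a and Rad21 were at -0.21 ± 0.33 and -0.18 ± 0.29 untreated and at 0.21 ± 0.48 and -0.05 ± 0.60 with nocodazole (SD, n = 4 each). Smc3 had no annotated probe.

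Among cytokinesis genes, Prc1, which bundles midzone microtubules, was at 0.25, 0.99, 1.25 and -0.17 on untreated replicates 1 to 4 and at -0.11, -0.08, -3.62 and -1.37 with nocodazole. All nocodazole values were negative, and the conditions overlapped at their edges. Ect2, the exchange factor that activates RhoA for furrowing, was at 0.02 ± 0.15 untreated and -0.06 ± 0.0087 with nocodazole (SD, n = 4 each), and Anln, an actin-binding furrow protein, at -0.03 ± 0.25 and 0.01 ± 0.46 (SD, n = 4 each). Racgap1, of the centralspindlin complex, ranged from -1.42 to 2.48 untreated. Its probes differed by up to 5.17 on 1 array. Mki67, the proliferation marker Ki-67, and Hmmr had no annotated probe.

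**Figure D4:**
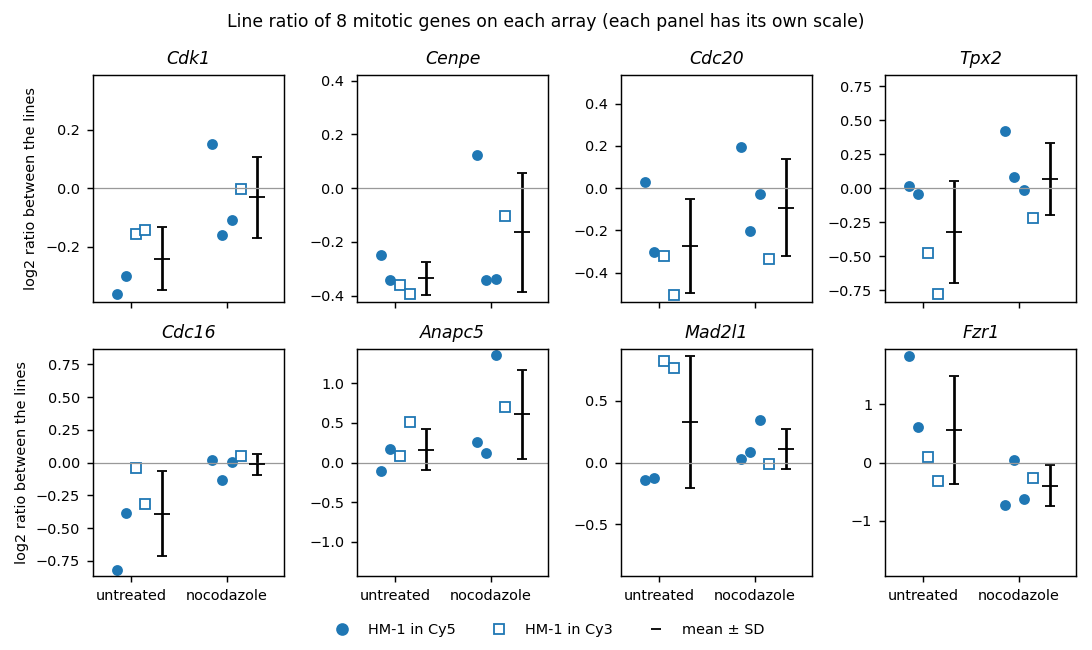
Log2 line ratio of 8 members on each array, untreated and with nocodazole (filled circles, HM-1 in Cy5; open squares, HM-1 in Cy3), with the mean ± SD of the 4 arrays as a black bar; each panel has its own scale. With the deposited signs Cenpe is below 0 on 7 of 8 arrays, and the untreated values of Mad2l1 fall apart by dye.

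Of 38 members with a value on all 4 untreated arrays, 6 had 1 sign throughout (15.8%, against 14.0% of features), namely Cdc16, Cdk1, Cenpa, Cenpe and Ncaph below 0 and Cdc25b above. Those negative on all 4 made up 13.2% of members and 7.22% of features. With the Cy3 arrays turned, 7 members had 1 sign (18.4%, against 20.5%), 4 of them negative (10.5%, against 9.80%), and none of the former 6 was among them. With nocodazole 3 of 36 had 1 sign (8.33%, against 10.3%): Anapc5 above 0, Ect2 and Prc1 below. Turned, 7 had 1 sign (19.4%, against 15.8%), and none of these 3 was among them. Of the 35 members with a value on every array, Cdk1 and Cenpe alone had 1 sign on the 7 arrays other than nocodazole replicate 1 (5.71%, against 4.12% of features), and both were positive on that array. The same held across the array: of 481 features with 1 sign on those 7 arrays, 387 had the opposite sign on nocodazole replicate 1. No member had 1 sign on all 8.

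No member passed the test for a change of the ratio between conditions. In limma 2 members had an unadjusted p under 0.05 for the change (4.88%, against 3.33% of all features), the smallest adjusted p was 0.997, and 0% of features passed. The nocodazole ratio minus the untreated ratio was 0.45 for Cdc16 (95% interval 0.04 to 0.85) and -1.12 for Fzr1 (-2.16 to -0.08). With only the Fzr1 probe that passed the filter on its own, the change was 0.05. Neither probe of Cdc16 had an unadjusted p under 0.05 alone, at 0.15 and 0.74. The median change over members was -0.004, with 20 positive and 21 negative. The count was 0 without nocodazole replicate 1 or 2, 1 without untreated replicate 4 or nocodazole replicate 3, and 4 with the Cy3 arrays turned, against 4.94% of features.

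Members differed widely in how well their probes repeated. The deposited ratios hold a fixed offset per array, and once it was removed 10% to 26.4% of an array's member values came out as the quotient of 2 whole numbers no larger than 10, within 0.0015 on the log2 scale, as 11% to 19.4% of all values did and as 4.33% to 5.34% did with the offset shifted. Intensities were not at hand to look at these spots directly. At least 3 matching values were found for 8 of 58 member probes (13.8%, against 12.1% of all probes), with a median SD within a condition of 1.57. The 20 member probes with no match had a median SD of 0.23, though Plk1 among them reached 4.09. Over the 41 members the SD within a condition had a median of 0.41, beside 0.42 over all features. It was under 0.2 for 11 members (26.8%, against 19.1%) and above 1 for 8 (19.5%, against 17.8%). For 12 members with several probes, these differed by a median of 0.07 (Cdc16) to 2.27 (Racgap1) per array.

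**Figure D5:**
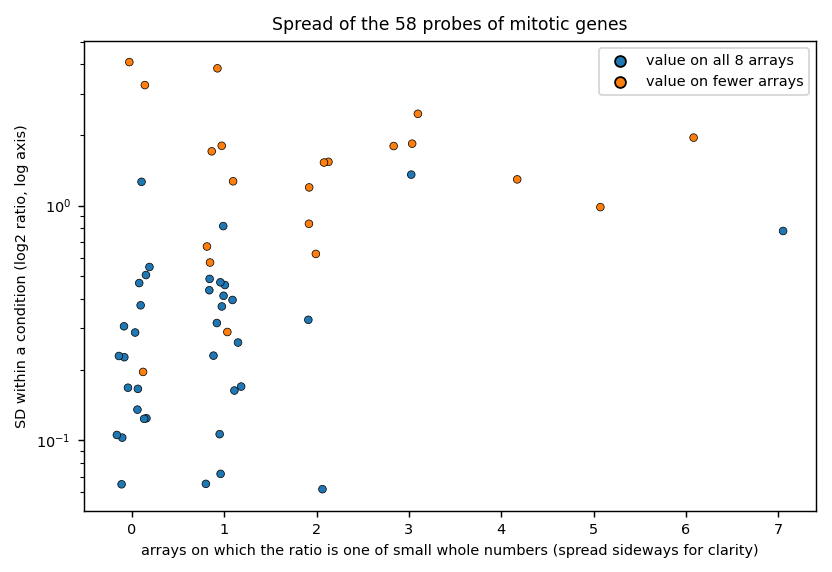
SD of the log2 ratio within a condition (log axis) for the 58 member probes, against the number of arrays on which the probe's ratio is one of whole numbers up to 10; blue probes have a value on all 8 arrays, orange ones on fewer. The 8 probes with at least 3 matches have SDs between 0.78 and 2.46, and the 20 with none have a median of 0.23.

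For the dye term 4 members had an unadjusted p under 0.05 (9.76%, against 9.16% of all features): Cenph and Aurka below 0 and Tpx2 and Rad21 above it. With the Cy3 arrays turned the count was 5, against 5.22% of features. Which of these readings separates dye from line was not tested. Pearson's r between arrays was taken over the 35 members with every value, which share the arrays and are not independent replicates. Its median was 0.19 over the 13 pairs of arrays with HM-1 in the same dye. Over the 15 pairs with opposite dyes it was -0.20. Over all 11681 features with every value these medians were 0.05 and -0.05. There the opposite-dye pairs with untreated or nocodazole replicate 1 lay between -0.17 and -0.07. The other opposite-dye pairs lay between -0.08 and 0.02. Over members the lowest, -0.56, was between untreated replicate 4 and nocodazole replicate 2. Spearman's rho was smaller for members, with medians of 0.13 and -0.10. For all features the medians of rho were 0.08 and 0.0011, and the 15 pairs with opposite dyes ranged from -0.22 to 0.05.

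Other genes of these processes were read against the same backgrounds. Of 82 further mitotic genes, such as other subunits of the kinetochore, the anaphase promoting complex and condensin, 41 were tested. At an unadjusted p under 0.05 in the untreated ratio 2 were positive and 1 negative (7.32%, against 6.33% of all features), and in the nocodazole ratio 1 and 1 (4.88%, against 2.91%), with medians of -0.05 and -0.04. Of 39 genes of replication and the G1/S transition 27 were tested, with 2 positive and 2 negative untreated (14.8%, against 6.33%), 0 at that threshold with nocodazole, none past an adjusted p of 0.05 in limma in either, and medians of -0.10 and -0.05. Geminin, Gmnn, the replication licensing inhibitor that the anaphase promoting complex degrades, was at 3.15, 2.10 and 0.78 on untreated replicates 2 to 4 and between -0.03 and 0.36 with nocodazole (change -2.21, adjusted p = 0.997). The transcription factor E2f1 was at 1.55, 0.36 and 0.70 on untreated replicates 1, 3 and 4. For both genes the values on untreated replicates 3 and 4, with HM-1 in Cy3, change sign when turned, so their untreated values then lie on both sides of 0. The negative genes were cyclin E1, Ccne1, with an untreated ratio of -0.33, and Rrm1, a ribonucleotide reductase subunit, with -0.31, and 17 of the 27 genes were negative. Markers of feeder fibroblasts, which the cultures may hold, were tested for 16 of 18 genes, with medians over the genes between -0.20 and -0.035 on the untreated arrays and between -0.30 and 0.003 with nocodazole. The members' medians were -0.16 to 0.01 and -0.08 to 0.03. Of the 16 markers 2 had an unadjusted p under 0.05 in the untreated ratio (12.5%, against 6.33% of all features), S100a4 and Thbs1, each at -0.62. With nocodazole 0 did, and none passed an adjusted p of 0.05 in limma. Like Cdk1 and Cenpe, both markers were positive on nocodazole replicate 1 and negative on every other array. The part of feeder cells in the members' ratios was not tested. Markers of embryonic stem cells were tested for 10 of 19 genes, none past an adjusted p of 0.05 in limma. At an unadjusted p under 0.05, 2 were positive untreated (20%, against 6.33% of all features) and 1 with nocodazole (10%, against 2.91%), none negative. Over both conditions Esrrb (0.98), Lefty1 (0.41) and Gdf3 (1.09) passed that threshold (30%, against 5.59%). Esrrb was between -0.13 and 0.25 untreated and at 2.21, 2.85 and 1.02 on nocodazole replicates 2 to 4.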

How the data were processed

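The samples were 8 two-colour arrays with HM-1 and R1 on each, 4 untreated and 4 with nocodazole, per the labels. The deposited table gave a log2 ratio per probe and array; how the authors corrected and normalized it is not given in the sources used here. Ratios coded as 100000 (absolute log2 above 10) were set to missing. Symbols came from the platform annotation: 14030 of 20355 probes had 1 symbol, 5 several and 6320 none, and 13994 matched RefSeq gene IDs (GRCm38.p6, names only). Probes of a symbol were averaged and arrays centred on their median. limma 3.58.1 (R 4.3.3) fitted all features with values on at least 3 arrays per condition, with a coefficient per condition and a dye term. Tests were two-sided and adjusted by Benjamini-Hochberg over all features. The fit was also run on simulated data with less noise than these arrays, which does not show how it performs at their spread. Per-array values are given for members with an unadjusted p under 0.05 in a line comparison and for textbook members. Members, lists and alternatives were chosen with earlier results of these data known. The number of arrays limits the precision.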

Additional observations from a re-analysis of the deposited data

Results flagged for a closer look

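Dixon's ratio set 1 array apart in 5 of 74 groups of 4 arrays of a member; chance alone sets apart about 1 in 20 groups, here 3.7. In 3 of these it was nocodazole replicate 3. There Cdc25c was at -1.45, with the others between 0.04 and 0.17, Cenpb at -2.27, with the others between -0.04 and 0.07, and Racgap1 at -1.76, with the others between -0.07 and 0.01. On untreated replicate 2 Nek2 was at 1.15, with the others between -1.14 and -0.81. On untreated replicate 3 Racgap1 was at 2.48, with the others between -1.42 and -0.93. The SD over all probes was 1.28 on nocodazole replicate 3 and 0.78 to 0.91 on the other seven arrays. Its part in these values was not tested.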

How the results depend on the processing

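No alternative brought a member past an adjusted p of 0.05. Of the ratios of members with an unadjusted p under 0.05, 7 changed sign: with the Cy3 arrays turned, Tpx2 (0.31), Cenpe (0.041) and Cdc20 (0.14) untreated and Cenpe (0.028), Cdc20 (0.16) and Anapc5 (-0.029) over both conditions, and with every probe fitted on its own the change of Fzr1 (0.050), where its other probe had too few values to be fitted. For the turned arrays the cause was not tested. Counts of members at an unadjusted p under 0.05 moved as follows. The untreated count, 5 as reported, was 3 without centring or without the dye term and 8 with every probe on its own. The nocodazole count, 1 as reported, was 2 with arrays scaled to one spread, with every probe on its own or with the dyes of nocodazole replicate 3 exchanged, and 5 with the Cy3 arrays turned. The count over both conditions, 3 as reported, was 6 with the Cy3 arrays turned and 5 with nocodazole replicate 1 turned. The count for the change, 2 as reported, was 4 with arrays scaled or the Cy3 arrays turned and 0 with every probe on its own. The dye count, 4 as reported, was 7 without centring and 1 with nocodazole replicate 1 turned. With the Cy3 arrays turned the medians over members were 0.040 untreated, 0.010 with nocodazole, -0.012 over both and -0.17 for the dye term, which was 0.11 with coded values kept, 0.15 without centring and 0.10 with the dyes of nocodazole replicate 3 exchanged. Of the sign counts, that of members with 1 sign on all nocodazole arrays rose from 3 to 7 and that of untreated negative members at an unadjusted p under 0.05 went from 5 to 3 with the Cy3 arrays turned, a reading of these counts chosen after seeing the data. Leaving out single arrays gave 1 to 6 members untreated, 1 to 3 with nocodazole, 1 to 5 over both, 0 to 3 for the change and 2 to 6 for the dye term, and medians of -0.083 to -0.022 with nocodazole and -0.10 to -0.030 over both. The labels do not say that a replicate number pairs arrays, so the numbers are not taken as pairs. Deviations of arrays with one number had r = 0.13, 0.02, -0.05 and 0.09 for numbers 1 to 4. Between unlike numbers r ran from -0.13 to 0.14. The deviations were not corrected for dye, so these values cannot settle a pairing. With a replicate block in limma 5 members had an unadjusted p under 0.05 for the change, against 4.4% of features, and 0 passed after adjustment.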
